A study of Mus musculus with 20 samples.

Results

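The genes described here are Cdh5, which encodes VE-cadherin, and 9 other genes of endothelial cell borders, Pecam1, Esam, Cldn5, Tjp1, Ocln, Jam2, Jam3, F11r and Cd99l2. They were chosen by name, with earlier results of these data known, as were the marker and junction lists used below. Every probe set that carries the symbol of one of the 10 genes and no second symbol was taken. This gave 21 of 34945 such probe sets, and 10 of 18193 genes. The study measured total RNA of VE-cadherin+ endothelial cells from the bone marrow of adult C57/Bl6 mice, 8 to 10 weeks old, on 20 microarrays. The mice had received 5 Gy of total body irradiation 6 hours, 24 hours or 14 days earlier, or were non-irradiated, with 5 arrays per group, and no other genotype or agent is named. Arrays within a group are biological replicates per the labels, with no word on whether each stands for 1 animal or a pool, so p-values measure the spread between these samples. VE-cadherin is also the protein by which the labels define the cells, so Cdh5 is the gene of the selection marker.

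VE-cadherin molecules of neighbouring endothelial cells bind each other at adherens junctions and are tied to the actin cytoskeleton through catenins. Claudin-5 and occludin span the membrane at tight junctions, where ZO-1, the product of Tjp1, links them to actin, while PECAM-1, ESAM, the JAM proteins and CD99L2 hold cells together at the border and take part in the passage of leukocytes across it. In bone marrow, sinusoids have loose, permeable junctions through which blood cells enter the circulation, and arterioles have tighter ones. In cultured mouse endothelial cells VE-cadherin at junctions is known to raise transcription of Cldn5.

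The values are linear array intensities, called signal below, which the authors had scaled to 1 common trimmed mean per array. The median probe set of an array had a signal of 177 ± 10.1 in non-irradiated arrays, 149 ± 9.23 at 6 hours, 135 ± 5.18 at 24 hours and 94.5 ± 8.38 at day 14 (SD, n = 5 each). As an array's background the 95th percentile over 27 bacterial probe sets was taken, which ranged from 17.5 to 51.5. Log2 changes are on the log2(signal + 1) scale with limma's standard error, and p-values are limma's, adjusted by Benjamini-Hochberg over all 34945 probe sets with 1 symbol. A probe set was called higher or lower at an adjusted p under 0.05, and each gene is read from its lead probe set, the one with the highest mean over all arrays. Signals of different probe sets are not comparable with each other.

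Of 18 endothelial marker genes, such as Kdr, Tie1 and Emcn, 17 lay above background on all 20 arrays, and so did all 15 pan-leukocyte markers, such as Ptprc. The summed signal of the endothelial markers was 17887 to 18511 in non-irradiated arrays, 51294 to 57533 at 6 hours, 29308 to 32459.7 at 24 hours and 11595 to 12619 at day 14. Against non-irradiated arrays, 16 of the 18 were higher and 0 lower at 6 hours, 10 higher and 0 lower at 24 hours, and 1 higher and 12 lower at day 14 (7 higher and 3 lower, median 0.22, after median centring). Of all genes, 12.8%, 15.7% and 9.82% were called higher at these times as deposited, and 14.5%, 13.7% and 13.3% lower. After median centring, 8393 of all 34945 probe sets were called higher and 2585 lower at 24 hours, and 13950 higher and 1631 lower at day 14. The summed signal of 10 megakaryocyte markers, such as Itga2b and Gp9, was highest at 6 hours and lowest at day 14 as well, at 13572 to 15614 in non-irradiated arrays, 37376 to 46263 at 6 hours, 20267 to 21384 at 24 hours and 11222 to 12446 at day 14. The median log2 change of the 10 at day 14 was -0.36, and 0.54 after median centring. Platelets and megakaryocytes are known to carry Pecam1, Esam and F11r. The summed signal of 10 erythroid markers, of which Rhag and Sptb lay at or under background on every array at 24 hours, was 41938 to 45214 in non-irradiated arrays, 3943 to 8438 at 6 hours, 1904 to 2517 at 24 hours and 51946 to 63055 at day 14. The pan-leukocyte markers summed to 54599 to 62239 in non-irradiated arrays, 55849 to 63130.5 at 6 hours, 53872 to 60095 at 24 hours and 46481 to 49997 at day 14. Of these 15, 2 were higher and 5 lower at day 14 (median log2 change -0.13), and 13 higher and 0 lower after median centring (0.77). The 11 stromal and perivascular markers summed to 87516 to 99136 in non-irradiated arrays, 105776 to 130594 at 6 hours, 89351 to 111636 at 24 hours and 70327 to 84637 at day 14. Of these 11, 8 were higher and 0 lower at 6 hours (median log2 change 0.58). At 24 hours 6 were higher and 3 lower (0.75), and at day 14 2 higher and 4 lower (-0.23). Their mean log2 signal was 12.33 to 12.48 at 24 hours against 11.30 to 11.62 in non-irradiated arrays. Median centring gave 8 higher and 0 lower at 24 hours (1.13) and 9 higher and 0 lower at day 14 (0.67). The 14 granulocyte and monocyte markers summed to 131570.0 to 152639 in non-irradiated arrays, 97718 to 118081 at 6 hours, 104067 to 130616 at 24 hours and 92304 to 115834 at day 14. Of these 14, 0 were higher and 6 lower at day 14 (median log2 change -0.45), and 7 higher and 0 lower after median centring (0.45). The 8 stem and progenitor markers summed to 3058 to 3937 in non-irradiated arrays, 4264 to 6254 at 6 hours, 3261 to 4096 at 24 hours and 1596 to 2500.4 at day 14. Of these 8, 0 were higher and 2 lower at day 14 (median log2 change -0.61), and 0 higher and 1 lower after median centring (0.28). The 7 epithelial markers, of which 1 lay above background on all 20 arrays, summed to 204 to 364 in non-irradiated arrays, 359 to 666 at 6 hours, 189.9 to 364 at 24 hours and 109 to 236 at day 14. The part of these other cells in the changes of the junction genes was not tested. In RNA of sorted cells, fewer cells of a type and less RNA per cell cannot be told apart.

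Most of the junction genes were higher at 6 hours, and 4 of the adhesion genes were lower at day 14. At 6 hours, 7 of 10 were higher and 0 lower, namely Cdh5, Pecam1, Esam, Cldn5, Jam2, F11r and Tjp1, while 12.8% of all genes were called higher. For 6 of the 7, all except F11r, every array lay above every non-irradiated array, as it did for 7.59% of all genes. At 24 hours 3 of 10 were higher and 0 lower, Cdh5, F11r and Tjp1, against 15.7% of all genes called higher, and all 3 had every array above (15.1% of all genes). At day 14, Cdh5, Pecam1, Esam and Jam2 were lower, 4 of 10 against 13.3% of all genes, each with every array below (11.6%). Tjp1 alone was higher then, with every array above, 1 of 10 against 9.82% of all genes called higher and 11.4% with every array above. The median log2 change of the 10 was 1.02 at 6 hours, 0.23 at 24 hours and -0.71 at day 14, and that of all genes -0.022, -0.073 and -0.18, while median centring gave 1.27, 0.61 and 0.19 for the 10 and so turned the sign at day 14. An F test over the 4 groups called 8 of the 10, not Ocln and Cd99l2, and 54.8% of all genes. These comparisons share the 5 non-irradiated arrays.

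The irradiated groups were also compared with each other. At 24 hours against 6 hours 5 of 10 genes were lower and 0 higher, Cdh5, Pecam1, Cldn5, Esam and Jam2, where 9.78% of all genes were lower. At day 14 against 24 hours 7 of 10 were lower and 0 higher, all except Cldn5, Ocln and Cd99l2, where 21.4% of all genes were lower. At day 14 against 6 hours 7 of 10 were lower and 0 higher, all except Jam3, Ocln and Cd99l2, where 24.6% of all genes were lower. The part of Tjp1 in the last 2 counts depends on the scaling, as described with that gene.

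The scaling matters most at day 14. Centring each array on its own median added 0.25, 0.38 and 0.90 to every log2 change at 6 hours, 24 hours and day 14. At day 14 this turned 2880 higher and 5841 lower probe sets into 13950 higher and 1631 lower. Cdh5, Pecam1, Esam and Jam2 were still lower at day 14 under it, with log2 changes of -0.41, -0.70, -0.73 and -0.86. The changes of Cldn5 and Tjp1 then were 1.15 and 1.21, and both were called higher.

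**Figure D1:**
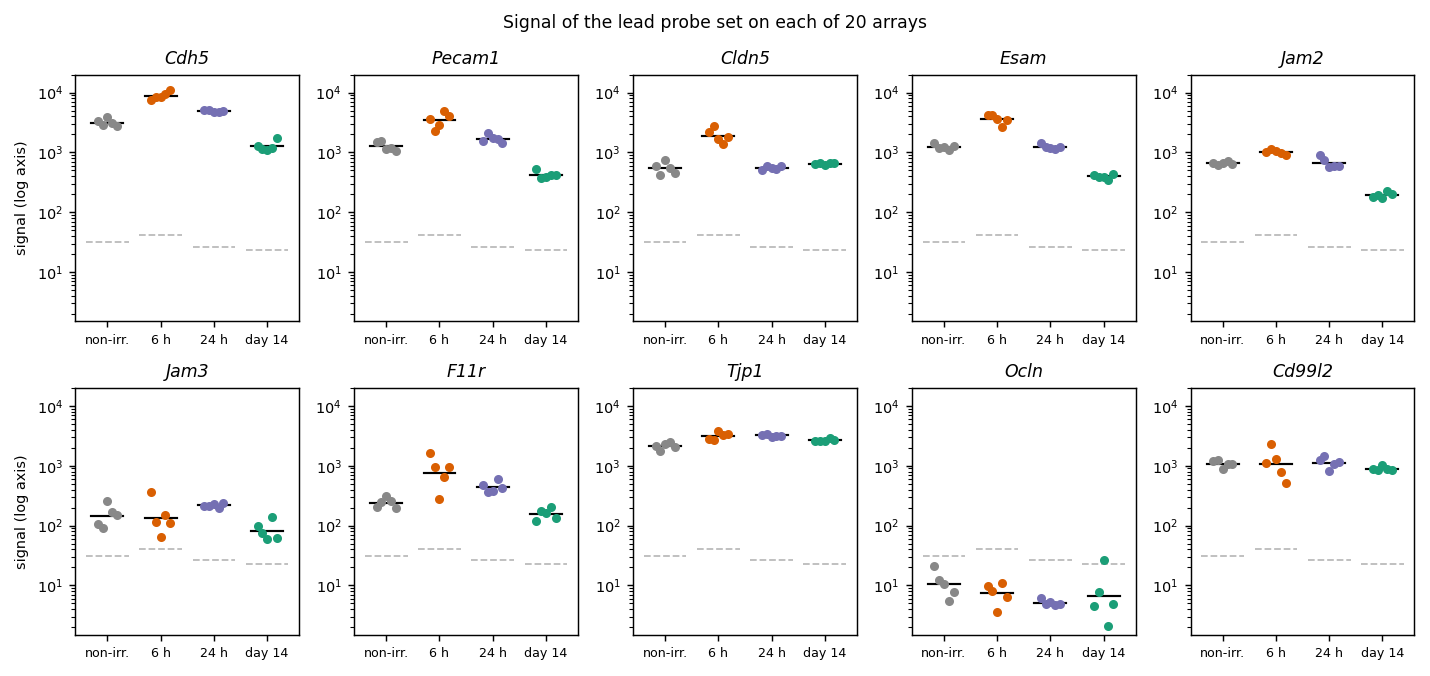
Signal of the lead probe set of each of the 10 genes on each array, on a log axis, for non-irradiated arrays and arrays 6 hours, 24 hours and 14 days after 5 Gy. Points are arrays, solid bars are means of the log2 signal and dashed bars the mean background of the group. Cdh5, Pecam1 and Esam are highest at 6 hours and lowest at day 14, Cldn5 is high at 6 hours alone, and Ocln lies at or under the dashed level on all but 1 array.

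Cdh5, the cadherin of endothelial adherens junctions, was highest at 6 hours and lowest at day 14. Its lead probe set (1422047_at) had signals of 3312, 2829, 3961, 3115 and 2709.8 in the non-irradiated arrays, 7631, 8328, 8559.8, 9309 and 10944 at 6 hours, 5019, 5097, 4680.4, 4706 and 4949.9 at 24 hours and 1298, 1144, 1094, 1172 and 1757 at day 14. All 4 groups were apart, with every array at 6 hours above every array at 24 hours, those above every non-irradiated array, and those above every array at day 14. Against non-irradiated arrays the log2 change was 1.49 ± 0.12 (adjusted p = 6.72e-10) at 6 hours, a 2.81-fold higher signal, 0.63 ± 0.12 (adjusted p = 2.46e-04) at 24 hours, and -1.31 ± 0.12 (adjusted p = 1.88e-08) at day 14, a 2.48-fold lower signal. The second probe set (1433956_at) gave 1.61, 0.91 and -0.89, all called. At 24 hours against 6 hours the change was -0.86 ± 0.12 (adjusted p = 9.14e-06), and at day 14 against 24 hours -1.94 ± 0.12 (adjusted p = 2.67e-12). The ratio of 3′ to 5′ Gapdh probe sets, a sign of RNA integrity and amplification, was 1.33 ± 0.04 in non-irradiated arrays, 1.58 ± 0.29 at 6 hours, 0.77 ± 0.056 at 24 hours and 0.89 ± 0.12 at day 14 on the log2 scale. Of its variance, 83.8% lay between the groups. The mean log2 signal of the hybridization controls was 12.66 to 12.87 in non-irradiated arrays and 12.66 to 13.04 at 6 hours. It was 12.01 to 12.36 at 24 hours and 11.95 to 12.38 at day 14. For every gene, the 24-hour and day 14 differences from non-irradiated arrays coincide with these differences between arrays. With the 3′ to 5′ ratio as a covariate the 24-hour change of Cdh5 was 0.44 (adjusted p = 0.139).

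Pecam1, an immunoglobulin-family adhesion molecule that binds itself across the border, was also highest at 6 hours and lowest at day 14. Its 1 probe set (1421287_a_at) had signals of 1516, 1561, 1153, 1189 and 1058 in the non-irradiated arrays, 3623, 2300.0, 2886, 4899 and 4002 at 6 hours, 1563, 2101, 1713, 1699 and 1411 at 24 hours and 534, 369.6, 383, 425 and 419 at day 14. Every array at 6 hours lay above and every array at day 14 below all non-irradiated arrays, and the 24-hour arrays overlapped them. Log2 changes against non-irradiated arrays were 1.42 ± 0.17 (adjusted p = 6.35e-07) at 6 hours, 2.68-fold higher, 0.39 ± 0.17 (adjusted p = 0.0952) at 24 hours and -1.60 ± 0.17 (adjusted p = 2.66e-07) at day 14, 3.02-fold lower. The 24-hour difference missed the threshold as deposited and passed it after median centring, at 0.78 (adjusted p = 7.22e-04), with array weights (adjusted p = 0.0193) and in a fit of these 2 groups alone (adjusted p = 0.0231).

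Esam, an adhesion molecule of endothelial tight junctions that platelets also carry, was higher at 6 hours and lower at day 14, and its 24-hour difference did not pass. Its 1 probe set (1460356_at) had signals of 1443, 1169.8, 1213, 1078 and 1257 in the non-irradiated arrays, 4149.8, 4231, 3595, 2698 and 3542 at 6 hours, 1452, 1242, 1178, 1152 and 1211 at 24 hours and 419, 393, 395, 346 and 432 at day 14. The 24-hour arrays overlapped the non-irradiated ones, the 6-hour arrays all lay above them and the day 14 arrays all below. In log2 terms the changes were 1.55 ± 0.14 (adjusted p = 1.90e-09) at 6 hours, 2.93-fold higher, 0.019 ± 0.14 (adjusted p = 0.938) at 24 hours and -1.63 ± 0.14 (adjusted p = 2.21e-09) at day 14, 3.09-fold lower. At 24 hours against 6 hours Esam fell by 1.53 ± 0.14 (adjusted p = 5.21e-09). After median centring the 24-hour change of Esam was 0.40 (adjusted p = 0.046).

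Cldn5, the main claudin of endothelial tight junctions, rose the furthest of the 10 at 6 hours on the log2 scale and its day 14 difference did not pass. Its 1 probe set (1417839_at) had signals of 596, 424, 753, 557 and 451 in the non-irradiated arrays, 2173, 2738, 1705, 1390.3 and 1831 at 6 hours, 518, 593, 552, 525 and 598 at 24 hours and 638, 659, 614, 669.8 and 662 at day 14. The 6-hour arrays all lay above the other 15, and the non-irradiated arrays overlapped both later groups. The fitted log2 changes were 1.81 ± 0.18 (adjusted p = 1.26e-08) at 6 hours, 3.51-fold higher, 0.031 ± 0.18 (adjusted p = 0.921) at 24 hours and 0.25 ± 0.18 (adjusted p = 0.318) at day 14. At day 14 against 24 hours its log2 difference was 0.22 ± 0.18 (adjusted p = 0.363), not called although every day 14 array lay above every 24-hour array, and 0.74 after median centring (adjusted p = 0.0035). After median centring the change at day 14 against non-irradiated arrays was 1.15 (adjusted p = 1.95e-05).

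Tjp1, which encodes the scaffold ZO-1, was higher at all 3 times. Its 1 probe set (1417749_a_at) had signals of 2109, 1761, 2276, 2481 and 2079.7 in the non-irradiated arrays, 2825, 2715, 3734, 3238 and 3389.6 at 6 hours, 3286, 3421, 3028, 3171 and 3189 at 24 hours and 2586, 2546, 2597, 2857 and 2639 at day 14. Every irradiated array of each group lay above the highest non-irradiated array. On the log2 scale it changed by 0.57 ± 0.10 (adjusted p = 1.24e-04) at 6 hours, 0.60 ± 0.10 (adjusted p = 5.86e-05) at 24 hours and 0.31 ± 0.10 (adjusted p = 0.0273) at day 14, that is 1.48-fold, 1.51-fold and 1.24-fold higher. The day 14 call was lost after quantile normalization, at 0.12 (adjusted p = 0.433). It was also lost without day 14 replicate 4 (adjusted p = 0.0712), non-irradiated replicate 2 (0.0959) or non-irradiated replicate 5 (0.0513). As deposited, Tjp1 was lower at day 14 than at 24 hours (-0.28 ± 0.10) and than at 6 hours (-0.26 ± 0.10), and after median centring both signs turned, to 0.23 and 0.39. The first of these was also lost without any one array of either group other than 24-hour replicate 3 and day 14 replicate 4, with adjusted p up to 0.078. The second was lost without 6-hour replicates 3, 4 or 5 or day 14 replicates 1, 2, 3 or 5, with adjusted p up to 0.125.

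Ocln, which encodes the tight junction protein occludin, was not measurable above background. The lead probe set (1440220_at) had signals of 21.2, 12.2, 10.5, 5.50 and 7.73 in the non-irradiated arrays, 9.68, 8.07, 3.66, 10.9 and 6.52 at 6 hours, 6.20, 4.92, 5.34, 4.76 and 4.80 at 24 hours and 4.48, 7.88, 26.3, 2.07 and 4.98 at day 14. It lay above background on 1 of 20 arrays, as did the second (1448873_at), each time on a day 14 array. No fold change is given, since all groups lay at or near the level of the bacterial probe sets.

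Jam2, which encodes the JAM-B of vascular endothelium, was higher at 6 hours and lower at day 14, there on all its probe sets. Its lead probe set (1449408_at) had signals of 674, 615, 665, 705 and 640.5 in the non-irradiated arrays, 1029.5, 1134, 1059, 987 and 908 at 6 hours, 915, 743, 575, 599 and 600.3 at 24 hours and 178, 195, 172, 225 and 203 at day 14. The 6-hour arrays all lay above the non-irradiated ones, the 24-hour arrays overlapped them and the day 14 arrays all lay below. Its log2 changes came to 0.63 ± 0.17 (adjusted p = 0.00542) at 6 hours, 1.55-fold higher, 0.035 ± 0.17 (adjusted p = 0.905) at 24 hours and -1.76 ± 0.17 (adjusted p = 2.17e-08) at day 14, 3.39-fold lower. All 5 probe sets of Jam2 were called lower at day 14, from -2.69 to -1.54. At 6 hours 2 of the 5 were called, the lead one and 1431416_a_at at 0.90, and the other 3 gave between 0.0012 and 0.61. Jam2 had -0.59 ± 0.17 (adjusted p = 0.0108) at 24 hours against 6 hours, a call lost after median centring (adjusted p = 0.058) and with the pan-leukocyte mean (0.0613) or the 3′ to 5′ ratio (0.378) as a covariate.

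Jam3, a partner of the JAM encoded by Jam2, was dim and its probe sets disagreed. The lead one (1423503_at) had signals of 107, 90.0, 254, 171 and 153 in the non-irradiated arrays, 367, 115, 64.9, 153 and 112 at 6 hours, 213, 210.3, 231, 195 and 238 at 24 hours and 99.7, 76.1, 59.3, 137 and 61.3 at day 14. The irradiated arrays at each time overlapped the non-irradiated ones, and the 24-hour arrays were the most alike. Its log2 changes were -0.089 ± 0.39 (adjusted p = 0.904), 0.58 ± 0.39 (adjusted p = 0.296) and -0.81 ± 0.39 (adjusted p = 0.137) at 6 hours, 24 hours and day 14, none called. The day 14 change passed as lower in 1 of 25 alternative limma fits (adjusted p = 0.0040). The second probe set (1423504_at), above background on 18 arrays, gave -0.62, -1.03 and -1.47, with an adjusted p of 0.0318 at day 14. At 24 hours the 2 probe sets thus had opposite signs. The lead probe set of Jam3 was lower at day 14 than at 24 hours, -1.39 ± 0.39 (adjusted p = 0.00686), a call lost after median centring (adjusted p = 0.095). Without 6-hour replicate 1 its difference at 24 hours against 6 hours passed (1.03, adjusted p = 0.0435), and without 6-hour replicate 3 that at day 14 against 6 hours (-0.98, adjusted p = 0.0406).

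F11r, which encodes JAM-A, a JAM of epithelium, endothelium and platelets, rose at 6 hours with the widest spread of the 7 that rose. Its lead probe set (1424595_at) had signals of 201, 248, 317, 256 and 199.9 in the non-irradiated arrays, 1650.3, 935, 275, 657 and 959 at 6 hours, 477, 367, 376, 611 and 419 at 24 hours and 121, 177, 161, 207 and 136 at day 14. At 6 hours 4 arrays lay above all non-irradiated arrays and replicate 3 did not, while all 24-hour arrays lay above. Fitted changes on the log2 scale were 1.67 ± 0.32 (adjusted p = 2.71e-04) at 6 hours, 0.87 ± 0.32 (adjusted p = 0.0429) at 24 hours and -0.61 ± 0.32 (adjusted p = 0.176) at day 14. The day 14 change passed as lower in 2 of 25 alternative limma fits, with an adjusted p down to 0.0036. The second probe set (1436374_x_at) was above background on 5 arrays, and with the mean of both the 6-hour change was 0.89 (adjusted p = 0.127). With the pan-leukocyte marker mean as a covariate the 6-hour change was 1.05 (adjusted p = 0.0914). The 24-hour call was close to the threshold, and it was lost without any one of 24-hour replicates 1, 3, 4 and 5 or of non-irradiated replicates 1, 2, 4 and 5, with adjusted p from 0.0516 to 0.112. With the 3′ to 5′ ratio as a covariate the sign of the 24-hour change turned, to -0.47. F11r had -0.80 ± 0.32 (adjusted p = 0.08) at 24 hours against 6 hours, which passed without 6-hour replicate 3 (-1.17, adjusted p = 0.00171).

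Cd99l2, a CD99-related protein of endothelial borders and leukocytes, had no called difference from non-irradiated arrays on any of its 4 probe sets. The lead one (1456746_a_at) had signals of 1185, 1245, 872, 1062 and 1064 in the non-irradiated arrays, 1103, 2331, 1311, 786 and 512 at 6 hours, 1241, 1436, 817, 1089 and 1164 at 24 hours and 879.9, 837, 1028, 898 and 855 at day 14. The groups overlapped, and the 6-hour arrays spread the most. Changes in log2 signal were -0.02 ± 0.25 (adjusted p = 0.969), 0.068 ± 0.25 (adjusted p = 0.876) and -0.26 ± 0.25 (adjusted p = 0.477) at 6 hours, 24 hours and day 14. The probe sets 1423965_at and 1423966_at were higher at 24 hours than at 6 hours, by 0.76 ± 0.24 (adjusted p = 0.0249) and 0.98 ± 0.32 (adjusted p = 0.0299), and the lead one had 0.089 ± 0.25 (adjusted p = 0.844).

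**Figure D2:**
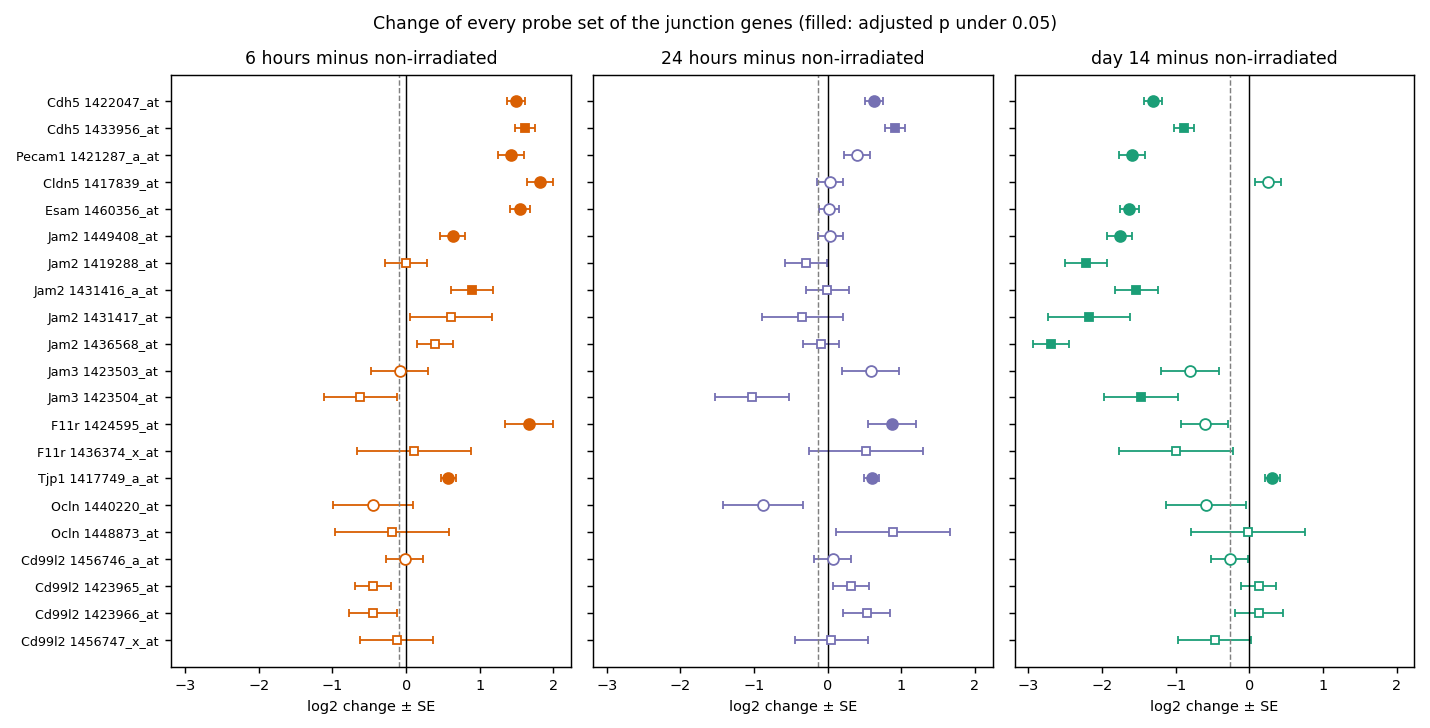
Log2 change ± SE of all 21 probe sets at 6 hours, 24 hours and day 14 against non-irradiated arrays (5 arrays each). Circles are lead probe sets, squares the others, filled symbols have an adjusted p under 0.05, and dashed lines mark the median change of all 34945 probe sets. At day 14 the probe sets of Cdh5, Pecam1, Esam and Jam2 lie left of 0 and those of Cldn5 and Tjp1 right of it.

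The promoters of Cldn5, Tjp1 and F11r are shown because the day 14 levels of Cldn5 and Tjp1 departed from that of Cdh5 while F11r rose at 6 and 24 hours as Cdh5 did. Tjp1 was higher at those times too, and the 24-hour call of F11r was close to the threshold. Cd99l2 also departed from Cdh5 at day 14, and its promoter is not shown. The windows are the 250 bases before the annotated start of each gene, from RefSeq on GRCm38.p6, 5′ to 3′ on the strand of the gene. Of the 10 genes 5 matched the promoter table, these 3, Ocln and Cd99l2. Capitals mark every match, on either strand, to the ETS-type motifs CGGAAG (the first) and CAGGAA (the second), the forkhead-type motif TGTTTAC, the GC box GGGCGG, the CCAAT box or the TATA box TATAAA.
Cldn5 (chr16:18776597-18776846, + strand): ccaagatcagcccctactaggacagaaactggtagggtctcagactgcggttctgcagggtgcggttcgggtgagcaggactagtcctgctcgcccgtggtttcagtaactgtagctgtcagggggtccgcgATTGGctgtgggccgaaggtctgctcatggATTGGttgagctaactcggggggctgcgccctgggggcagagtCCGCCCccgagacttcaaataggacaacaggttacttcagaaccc
Tjp1 (chr7:65371245-65371494, - strand): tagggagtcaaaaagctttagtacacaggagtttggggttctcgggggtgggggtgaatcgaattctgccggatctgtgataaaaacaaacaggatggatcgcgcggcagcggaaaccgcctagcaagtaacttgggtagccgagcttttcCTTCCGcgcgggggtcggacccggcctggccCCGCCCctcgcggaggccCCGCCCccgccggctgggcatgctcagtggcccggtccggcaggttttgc
F11r (chr1:171437311-171437560, + strand): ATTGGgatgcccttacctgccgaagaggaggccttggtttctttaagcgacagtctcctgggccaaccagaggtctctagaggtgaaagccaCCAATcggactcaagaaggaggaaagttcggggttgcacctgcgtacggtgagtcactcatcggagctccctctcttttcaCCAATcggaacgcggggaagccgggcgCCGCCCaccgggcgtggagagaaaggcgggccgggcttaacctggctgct
The Cldn5 window held 2 CCAAT boxes and 1 GC box, the F11r window 3 CCAAT boxes and 1 GC box. The Tjp1 window held 1 match to the first ETS-type motif, 2 GC boxes and no CCAAT box. None of the 3 windows held the second ETS-type motif, the forkhead-type motif or the TATA box. Among the same windows of 32851 starts in the table, the first ETS-type motif was present in 13.6%, the second in 25.7%, the forkhead-type motif in 3.17%, the GC box in 32.7%, the CCAAT box in 33.9% and the TATA box in 12.4%. Each motif was counted on its own, so matches of 2 motifs may share bases, and a match describes letters, not a binding site.

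Ratios to Cdh5 on the same array do not depend on the scaling of that array, and they show which genes changed unequally with it. Each of 27 ratios (9 genes at 3 times) was compared between 5 irradiated and 5 non-irradiated arrays by an exact two-sided permutation test, whose smallest possible p is 0.00794, and p-values were adjusted over the 27. In all, 13 of the 27 passed, 3 higher and 10 lower, 2 of the lower ones being Ocln, whose background-level signal gives its ratios no meaning. Since Cdh5 itself was higher at 6 and 24 hours and lower at day 14, an unchanged gene falls and then rises relative to it. The share of all genes whose ratios pass was not computed, so the 13 cannot be called particular to the junction genes. No ratio of Pecam1 to Cdh5 passed, with log2 changes of -0.073, -0.24 and -0.29 at 6 hours, 24 hours and day 14. Esam was lower relative to Cdh5 at 24 hours, at -0.61 (adjusted exact permutation p = 0.0238), and the ratio did not pass at 6 hours (0.059) or day 14 (-0.32). Jam2 was lower relative to Cdh5 at all 3 times, at -0.86, -0.60 and -0.45, with adjusted exact permutation p of 0.0238, 0.039 and 0.0495. The 24-hour call of Jam2 was lost without non-irradiated replicate 1, 2, 4 or 5 (highest adjusted exact p = 0.0643). Its day 14 call was lost without any one array other than day 14 replicate 4 and non-irradiated replicate 3 (highest adjusted exact p = 0.0989), and the ratio turned to 0.10 after quantile normalization, which is not a rescaling of whole arrays.

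Cldn5 relative to Cdh5 did not pass at 6 hours (0.32), was lower at 24 hours, at -0.60 (adjusted exact permutation p = 0.0238), and higher at day 14, at 1.56 (adjusted exact permutation p = 0.0238). At 24 hours all 5 irradiated arrays lay below all 5 non-irradiated ones, and at day 14 all 5 lay above. Tjp1 relative to Cdh5 was lower at 6 hours, -0.92 (adjusted exact permutation p = 0.0238), at -0.035 without passing at 24 hours, and higher at day 14, 1.62 (adjusted exact permutation p = 0.0238). Cd99l2, which had no called change of its own, was lower relative to Cdh5 at 6 hours, -1.51 (adjusted exact permutation p = 0.039), and higher at day 14, 1.05 (adjusted exact permutation p = 0.0238). The 6-hour call of Cd99l2 was lost without 6-hour replicate 4 or 5 or non-irradiated replicate 1, 2, 4 or 5, with an adjusted exact p of up to 0.0779, and its 24-hour ratio (-0.56) passed without non-irradiated replicate 3 (adjusted exact p = 0.0238). F11r did not pass at any time, with 0.18, 0.24 and 0.70, though the day 14 ratio passed without day 14 replicate 5 (0.87, adjusted exact p = 0.0214). Jam3 passed at 6 hours, -1.58 (adjusted exact permutation p = 0.0495), a call lost without any one array other than 6-hour replicate 1 (highest adjusted exact p = 0.0893). After quantile normalization the 6-hour ratio of Jam3 did not pass (-1.11), its day 14 ratio was higher (1.59), and F11r was higher at 24 hours (0.60) and day 14 (1.54). With the mean of each gene's probe sets, 24-hour ratios of Jam3 (-0.99), Cd99l2 (-0.53) and Tjp1 (-0.17) and the day 14 ratio of Esam (-0.53) passed as lower.

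**Figure D3:**
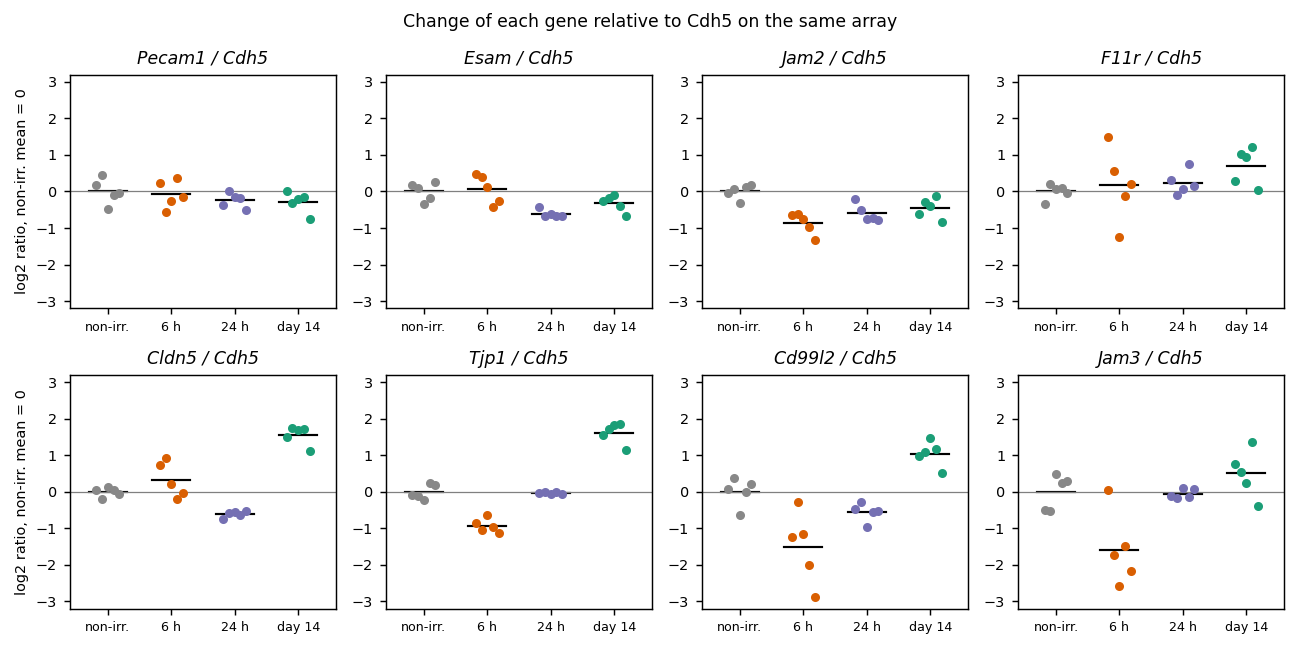
Log2 ratio of each gene to Cdh5 on the same array, set to 0 at the non-irradiated mean, for non-irradiated arrays and arrays 6 hours, 24 hours and 14 days after 5 Gy. Points are arrays and bars group means (n = 5). The Pecam1 groups overlap, while all day 14 arrays of Cldn5, Tjp1 and Cd99l2 lie above the non-irradiated ones, with mean ratios of 1.56, 1.62 and 1.05.

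The same test was made against the mean log2 signal of the 18 endothelial markers, none of which is among the 10 genes, with 30 ratios, of which 17 passed, 3 higher and 14 lower (2 of them Ocln). For these ratios, too, the share of all genes that pass was not computed. At 6 hours Cdh5 (-0.035), Pecam1 (-0.11), Esam (0.024) and Cldn5 (0.29) did not pass, while Jam2 (-0.90), Tjp1 (-0.96), Cd99l2 (-1.55) and Jam3 (-1.62) were lower relative to the markers. The Jam3 call was lost without 6-hour replicate 2, 3, 4 or 5 or non-irradiated replicate 3, 4 or 5 (highest adjusted exact p = 0.07), and F11r passed at no time as deposited. At day 14 the change relative to the marker mean was -0.54 (adjusted exact permutation p = 0.0298) for Cdh5, -0.82 (adjusted exact permutation p = 0.017) for Pecam1, -0.85 (adjusted exact permutation p = 0.017) for Esam and -0.99 (adjusted exact permutation p = 0.017) for Jam2. Cldn5, at 1.02, Tjp1, at 1.09, and Cd99l2, at 0.51, were higher relative to the markers then (adjusted exact permutation p = 0.017, 0.017 and 0.017). After quantile normalization the day 14 ratio of Cd99l2 lost its call (0.28, adjusted exact p = 0.0529), as did the 6-hour ratio of Jam3 (-1.35, 0.0529), and that of F11r at day 14 passed (0.67, 0.0298). At 24 hours Cldn5 (-0.63), Esam (-0.64), Jam2 (-0.63) and Cd99l2 (-0.59) were lower relative to the markers, and Cdh5 (-0.031) did not pass. The day 14 ratio of Cdh5 lost its call without day 14 replicates 2, 3 or 4 or non-irradiated replicate 3, each time with an adjusted exact permutation p of 0.056, and when both of its probe sets were averaged (-0.28).

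Among 9780 probe sets above the median level, 1 per gene, the 5 whose means over the 4 groups lay nearest those of Cdh5 were Entpd1, Adgrl4, Galnt15, Prkch and Arap2. The root mean square difference of their centred log2 means was 0.0456, 0.0475, 0.0512, 0.0859 and 0.0866. Entpd1, which encodes the ectonucleotidase CD39, had log2 changes of 1.56, 0.69 and -1.18 at 6 hours, 24 hours and day 14. Of the junction genes, Pecam1 was the nearest, at rank 8 (0.117), followed by F11r at rank 94, Esam at 101 and Jam2 at 140. Cldn5, Tjp1 and Cd99l2 lay far from it, at ranks 1860, 3032 and 3125. The likeness rests on 4 group means and is a description.

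The genes that work with VE-cadherin at adherens junctions were in part higher at 6 and 24 hours. For this and the further lists, 27.3%, 29.4% and 23.2% of all genes were called in either direction at 6 hours, 24 hours and day 14. These shares are as deposited. After median centring, 5785, 8393 and 13950 of all 34945 probe sets were called higher at these times and 3277, 2585 and 1631 lower. Of 22 measured, 11 were higher and 0 lower at 6 hours (median log2 change 0.70), 10 higher and 3 lower at 24 hours (0.39) and 0 higher and 8 lower at day 14 (-0.17; 12 higher and 4 lower, median 0.73, after median centring). Rasip1, which encodes an effector of the GTPase Rap1 needed for vessel lumens in mice, averaged 4310.1 ± 580.1 at 6 hours against 770.2 ± 304 in non-irradiated arrays (log2 change 2.57 ± 0.21, adjusted p = 5.32e-10). Nectin2, an immunoglobulin-like adhesion molecule, had 1.96 ± 0.26 and Ctnnd1, the p120-catenin that keeps VE-cadherin at the surface, 1.29 ± 0.12. The 2 other probe sets of Ctnnd1 had 6-hour changes of 0.18 and 0.75. At 24 hours the largest changes were those of Nectin3 (1.59 ± 0.26), Nectin2 (1.42 ± 0.26) and Vcl, the actin-linking vinculin (1.08 ± 0.091). Heg1, a receptor that tethers KRIT1 at endothelial junctions, averaged 73.9 ± 22.1 at day 14 against 601 ± 152 in non-irradiated arrays (log2 change -3.04 ± 0.27, adjusted p = 6.08e-09). The scaffold gene Magi1 had -1.96 ± 0.36 and Afdn, the afadin that binds nectins, -1.60 ± 0.21. The Magi1 call was lost after quantile normalization, at -0.99 (adjusted p = 0.0692).

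Of 8 other adhesion proteins of the border, 7 were higher and 0 lower at 6 hours (median 1.33), 2 higher and 1 lower at 24 hours (0.74) and 0 higher and 3 lower at day 14 (-0.52; 4 higher and 1 lower, median 0.38, after median centring). The higher and lower counts at 24 hours were 7 and 0 after median centring and 6 and 0 after quantile normalization. Those of all 34945 probe sets were then 8393 and 2585 after median centring and 5996 and 4469 after quantile normalization. Mcam, the endothelial adhesion molecule CD146, averaged 629 ± 95.6 at 6 hours against 208 ± 45.3 in non-irradiated arrays (log2 change 1.61 ± 0.28, adjusted p = 8.28e-05). Bcam, a laminin-binding immunoglobulin-family protein, had 1.72 ± 0.49 and the tetraspanin gene Cd151 1.42 ± 0.12 at that time. At 24 hours Cd99 (1.39 ± 0.21) and Cd151 (1.32 ± 0.12) were higher and Cd47 (-0.26 ± 0.064) lower, a call that Cd47 lost with its sign turned after median centring (0.13) and lost after quantile normalization (-0.023). At day 14 Bcam lay at or under background on all 5 arrays, with a mean signal of 7.54 ± 4.69 against 70.7 ± 44.7 in non-irradiated arrays (adjusted p = 5.46e-05). Against the background of the day 14 arrays Bcam was at least 2.70-fold lower. Pvr (-1.05 ± 0.22) and Cd47 (-0.31 ± 0.064) were lower on their lead probe sets, while others of Pvr and Cd47 reached 0.35 and 0.25. After median centring Pvr, at -0.15, was no longer called, nor after quantile normalization (-0.49), and Cd47, at 0.59, was called higher. Some probe sets of Cd151 and Cd99 also had the opposite sign, as low as -0.74 and -0.65 at 24 hours.

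Of 20 regulators of the endothelial barrier, 11 were higher and 0 lower at 6 hours (median 0.48), 10 higher and 2 lower at 24 hours (0.39) and 2 higher and 5 lower at day 14 (-0.16; 13 higher and 2 lower, median 0.74, after median centring). The higher and lower counts at 24 hours were 15 and 0 after median centring, and 8393 and 2585 for all 34945 probe sets. S1pr1, the sphingosine 1-phosphate receptor that strengthens the barrier, averaged 3955 ± 534 at 6 hours against 1441 ± 227 in non-irradiated arrays (log2 change 1.46 ± 0.14, adjusted p = 9.13e-09). It had 1.09 ± 0.14 at 24 hours and -1.23 ± 0.14 at day 14, the last a call lost after median centring (-0.33, adjusted p = 0.0794). Fgd5, an endothelial activator of Cdc42, had 1.97 ± 0.24 at 6 hours and -1.50 ± 0.24 at day 14. The kinase gene Src, whose product phosphorylates VE-cadherin, had 1.42 ± 0.28 at 6 hours and 1.54 ± 0.28 at 24 hours. Mylk, the myosin light chain kinase, rose most at 24 hours (1.60 ± 0.082). Yes1, a kinase of the Src family, averaged 108 ± 86.1 at day 14 against 959 ± 239.6 in non-irradiated arrays (log2 change -3.46 ± 0.42, adjusted p = 1.14e-06) on its lead probe set. The 3 other probe sets of Yes1 had smaller log2 differences, from -1.49 to -0.46.

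Among other genes of tight junctions the share called was near that of all genes. Of 15 tight junction scaffolds and regulators 3 were higher and 1 lower at 6 hours, 2 higher and 2 lower at 24 hours and 0 higher and 4 lower at day 14, with medians of 0.28, 0.11 and -0.21 (5 higher and 0 lower, median 0.69, after median centring at day 14, and a median of 0.38 after quantile normalization). At 6 hours Cgnl1, which encodes paracingulin, had 1.44 ± 0.29, Cxadr, a coxsackie and adenovirus receptor of tight junctions, 1.40 ± 0.29, and Ybx3, a transcription factor that binds ZO-1, -0.52 ± 0.064. At 24 hours the polarity genes Pard3 (1.19 ± 0.25) and Mpdz (1.14 ± 0.10) were higher, while the 3 other probe sets of Mpdz ranged from -0.29 to 1.03. Cgn, which encodes cingulin, was called lower at 24 hours (adjusted p = 0.0213), but 3 of the 5 arrays lay at background, so no fold is given. Its mean signal was 20.8 ± 18.5 at 24 hours against 61.9 ± 19.96 in non-irradiated arrays, the second probe set of Cgn had -0.43, and the call was lost after quantile normalization (adjusted p = 0.0646). At day 14 Tjp3, which encodes ZO-3 (-1.37 ± 0.37), Lsr, a protein of 3-cell contacts (-1.24 ± 0.34), and Cxadr (-1.11 ± 0.29) were lower as deposited. After median centring none of these 3 was called, with Tjp3 at -0.47, Lsr at -0.34 and Cxadr at -0.21, nor after quantile normalization (-0.47, -0.27 and -0.25). As deposited, Tjp1 had the opposite sign at that time.

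Of 18 other claudins, 7 lay above background on all 20 arrays. At 6 hours 2 were higher and 2 lower, at 24 hours 4 higher and 3 lower, and at day 14 2 higher and 0 lower. The median of the 18 was 0.23, -0.14 and -0.51 at the 3 times, and 0.48, 0.24 and 0.39 after median centring, so its sign at 24 hours and day 14 depends on the scaling. Cldn13 had the largest called changes, at 299 ± 151 at 6 hours against 3244 ± 455 in non-irradiated arrays (log2 change -3.62 ± 0.29, adjusted p = 5.32e-10). Its change was -5.64 ± 0.29 at 24 hours and 0.82 ± 0.29 at day 14, the last a call lost after quantile normalization (0.63, adjusted p = 0.14). Beside it, all 10 erythroid markers were lower at 6 and at 24 hours, where 14.5% and 13.7% of all genes were lower. At day 14, 1 of these markers was higher and 0 lower, and median centring gave 8 higher (median 1.49), where 13950 of all 34945 probe sets were higher. Their part in the change of Cldn13 was not tested. Cldn12 was higher at 6 hours on its lead probe set (0.86 ± 0.22), while its other had the opposite sign (-0.48), and Cldn10 was higher at day 14 (0.47 ± 0.17). Cldn18 was called higher at 6 hours with 4 of 5 non-irradiated arrays at background, and Cldn4 and Cldn23 were called at 24 hours with 8 and 9 of the 10 arrays there, so no fold is given for these 3. The Cldn4 call was lost after median centring (adjusted p = 0.0536).

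Of 8 connexin genes, 2 lay above background on all arrays and 1 was called at each time. Gja1, the connexin 43 gene, was 0.21 ± 0.074 at 6 hours and -0.38 ± 0.074 at day 14 on its bright lead probe set, and its 5 other probe sets ranged from 0.19 to 1.39 at 6 hours and from -0.33 to 0.13 at day 14. After median centring Gja1 was called higher at day 14, at 0.52, and the list had 2 higher and 0 lower, against 0 higher and 1 lower as deposited. Gjc1, the connexin 45 gene, had 1.35 ± 0.23 at 24 hours. The medians of the 8 were 0.23, -0.042 and -0.71 at 6 hours, 24 hours and day 14, and after median centring 0.48, 0.34 and 0.19, with the opposite sign at both later times.

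**Figure D4:**
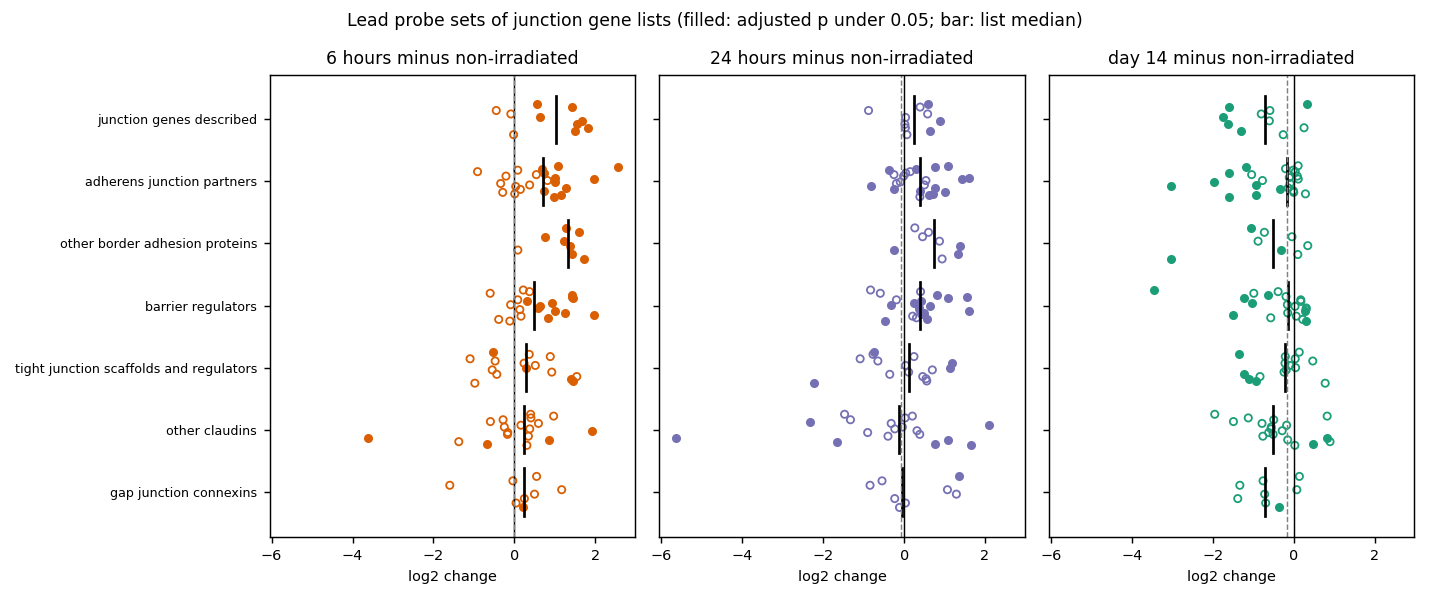
Log2 change of the lead probe set of every gene in the 10 junction genes and 6 further junction lists, at 6 hours, 24 hours and day 14 against non-irradiated arrays (5 arrays each). Filled points have an adjusted p under 0.05, bars are list medians and dashed lines the median of all 18193 genes. The 10 junction genes and the other border adhesion proteins have the highest list medians at 6 hours, 1.02 and 1.33.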

How the data were processed

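Per the labels' protocols, a Qiagen RNeasy micro kit gave the RNA and a NuGEN Ovation V2 system amplified it before 20 single-colour Affymetrix arrays. The deposited intensities are linear, and the values themselves show that the authors had scaled each array to a mean of 500 over its probe sets after a trim of 2% at both ends. Transcriptome Analysis Console and Affymetrix Expression Console appear in the submitters' processing notes, while the summarization, background correction and versions are not given in the sources used here. Of 45101 probe sets, 34945 had 1 gene symbol in the platform annotation, 932 several, 9160 were unnamed here and 64 were controls.

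The values were log2 transformed after adding 1. All 34945 probe sets were fitted in R 4.3.3 with limma 3.58.1 (lmFit, eBayes with an intensity trend) in 1 model of the 4 groups, two-sided, with Benjamini-Hochberg adjustment and a threshold of 0.05, and the same steps were tested on simulated data. Ratios within arrays were compared by exact permutation over all 252 relabellings of 5 against 5 arrays. Promoter windows came from the RefSeq table of GRCm38.p6. The number of arrays limits the precision. No 2 arrays held identical values. Arrays of the same replicate number did not deviate together from their group means (correlations of -0.052 to 0.04 over 30 pairs), so the numbers were not used as pairs. Named genes were all 10 members and, from each of 6 further junction lists and each time, up to 3 called genes with the largest absolute change, or the gene with the smallest p where none passed. The members and lists were chosen with earlier results of these data known. Alternatives were another scaling, pseudocount, filter, probe set rule, threshold or model, covariates, a replicate block and leaving out each array in turn.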

Additional observations from a re-analysis of the deposited data

Results flagged for a closer look

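The responses at different times were compared directly in the same limma fit, and 19 of 30 differences of the 10 genes had an adjusted p under 0.05. At 24 hours against 6 hours, 5 of 10 genes were lower and 0 higher, where 9.78% of all genes were lower. The log2 differences were Cdh5 -0.86, Pecam1 -1.03, Cldn5 -1.78, Esam -1.53 and Jam2 -0.59. At day 14 against 24 hours 7 were lower and 0 higher, where 21.4% of all genes were lower, with differences of Cdh5 -1.94, Pecam1 -1.99, Esam -1.65, Jam2 -1.80, Jam3 -1.39, F11r -1.48 and Tjp1 -0.28. At day 14 against 6 hours 7 were lower and 0 higher, where 24.6% of all genes were lower, with differences of Cdh5 -2.80, Pecam1 -3.02, Cldn5 -1.56, Esam -3.18, Jam2 -2.39, F11r -2.28 and Tjp1 -0.26. The Tjp1 differences at day 14 against 24 hours and against 6 hours turned to 0.23 and 0.39 after median centring. Among 84 groups of 5 arrays tested for an array far from the others, 2 had one, fewer than the 1 in 20 that chance gives. Both were on the dim Ocln probe set 1448873_at, day 14 replicate 3 at a signal of 23.4 and 6-hour replicate 1 at 27.9.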

How the results depend on the processing

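Over 117 single-gene changes and ratios and 2235 recomputed values, 2069 kept their side of the threshold with no called sign turned, 127 lost the call, 29 gained one and 10 changed sign; another 106 of those kept changed sign while past the threshold in neither fit. Signs turned with the endothelial marker mean as a covariate for Cldn5 (-0.33) and F11r (-0.25) at 6 hours, Tjp1 at day 14 (-0.34), F11r at day 14 against 24 hours (0.32) and 6 hours (0.62) and Cldn5 at day 14 against 6 hours (1.67). They also turned with median centring for Tjp1 at day 14 against 24 hours (0.23) and 6 hours (0.39), with the 3′ to 5′ ratio for F11r at 24 hours (-0.47), and with quantile normalization for Jam2 relative to Cdh5 at day 14 (0.10). The endothelial covariate, of which 99.4% of the variance lies between the groups, left 0 of 10 genes called in all 6 comparisons, and 0, 330, 6, 10, 0 and 0 probe sets (6 hours, 24 hours and day 14 against non-irradiated, 24 hours against 6 hours, day 14 against 24 hours and 6 hours), so it cannot be told apart from the groups. At 24 hours 5 genes were called after median centring and 1 with the 3′ to 5′ ratio, against 3. In that order of comparisons, 1 probe set per gene gave 4983, 5374, 4082, 4324, 6709 and 8164 calls and gene means 5177, 5563, 5084, 4159, 6741 and 8095, with fewer features tested, against 9237, 10103, 8721, 7539, 12162 and 14918. At day 14 the count was 5742 with quantile normalization, of which 3144 higher, 15581 with median centring, 4983 at a threshold of 0.01 and 4681 with the pan-leukocyte mean. At 6 hours the pan-leukocyte mean gave 6146. At 24 hours against 6 hours it gave 4461, a fit of the 2 groups 4831 and the threshold of 0.01 4569. The 3′ to 5′ ratio gave 6498 at 24 hours, 2620 at 24 against 6 hours and 8031 at day 14 against 6 hours. Higher and lower calls after median centring numbered 5785 and 3277, 8393 and 2585, 13950 and 1631, 5549 and 2167, 8617 and 3176 and 12007 and 3508, against 3837 and 5400, 4837 and 5266, 2880 and 5841, 4365 and 3174, 4718 and 7444 and 6343 and 8575 as deposited; after quantile normalization they numbered 4771 and 5146, 5996 and 4469, 3144 and 2598, 4637 and 2814, 5013 and 5010 and 7503 and 5270. The cause of these shifts was not tested. With the replicate number as a block, F11r at 24 hours (adjusted p = 0.0546) and Tjp1 at day 14 against 6 hours (adjusted p = 0.0509) lost their calls and no other call of the 10 genes changed; 9116, 9949 and 8411 probe sets passed against non-irradiated arrays. Leaving out 1 array gave 7 genes at 6 hours, 2 to 3 at 24 hours, 4 to 5 at day 14, 5 to 6, 6 to 7 and 6 to 7 in the direct comparisons, 7 to 8 in the F test, 9 to 13 of 27 ratios to Cdh5 and 15 to 17 of 30 to the endothelial mean. Signals near background, as for Ocln and F11r's second probe set, and disagreeing probe sets, as for Jam3, limit what can be measured.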
